A study of Danio rerio with 8 samples.

Results

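The visual opsins of the zebrafish retina were read in pools taken 3 days after optic nerve crush and in pools of unoperated retinae. The genes considered were rho, exorh, opn1sw1, opn1sw2, opn1mw1, opn1mw2, opn1mw3, opn1mw4, opn1lw1 and opn1lw2, and an array probe was taken as theirs when its RefSeq accession belonged to 1 of those symbols. By this rule 9 of the 10 genes had a probe, with 23 of the 43603 probes on the array, and opn1lw1, a red cone opsin, was matched to none and is not analysed here. Retinae came from wild type adult fish, whose sex was not distinguished. The crush group held right retinae after a crush of the right optic nerve that severs the ganglion cell axons and leaves the nerve sheath in place, and the control group held right retinae of other fish that had not been operated on. Each group comprised 4 arrays, and each array held RNA pooled from 4 fish, so that differences between single fish cannot be seen.

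An opsin is the protein that, bound to a retinal chromophore, absorbs light in the outer segment of a photoreceptor and sets off the transduction cascade. Zebrafish rods use the product of rho. Ultraviolet cones use opn1sw1, blue cones opn1sw2, green cones the 4 genes opn1mw1 to opn1mw4, and red cones opn1lw1 and opn1lw2. The green and the red genes are tandem copies that are used in different areas of the adult zebrafish retina, opn1mw1, opn1mw2 and opn1lw2 towards the centre and above it, and opn1mw3, opn1mw4 and opn1lw1 towards the margin and below. The ganglion cells, whose axons run in the crushed nerve, lie in another layer and pass on the signal that photoreceptors start.

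Optic nerve crush left no opsin probe past the thresholds of the study, a change of at least 1.5-fold with an adjusted p of at most 0.05. Of all 43601 probes tested, 2.75% passed in either direction, 1.89% upwards and 0.862% downwards in crush pools, and of the 23 opsin probes 0 passed, with adjusted p from 0.255 to 0.955 in limma's moderated test. At an unadjusted p under 0.05 in the same test stood 1 of the 23 opsin probes, against 8502 of all 43601 probes tested. A higher mean in crush pools was found for 13 opsin probes and a lower mean for 10, with a median log2 change of 0.06, beside -0.01 over all probes. The 4 crush values lay apart from the 4 control values for 2 of the 23 probes, both of rho, whereas 13.9% of all probes showed no overlap. A p above the threshold does not show that a gene was the same in both groups, and the intervals below give the changes that these arrays allow. Retinae were read whole, so that fewer cells of a type and less RNA per cell cannot be told apart.

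The green and red opsins opn1mw1, opn1mw2 and opn1lw2 differed widely between pools of the same group, by up to 199-fold, whereas the rod, ultraviolet and blue opsins differed little. Crush pool 4, control pool 2 and control pool 4 held the low values of all 3 genes. The plot of opsin signal by pool shows this for every probe.

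**Figure D1:**
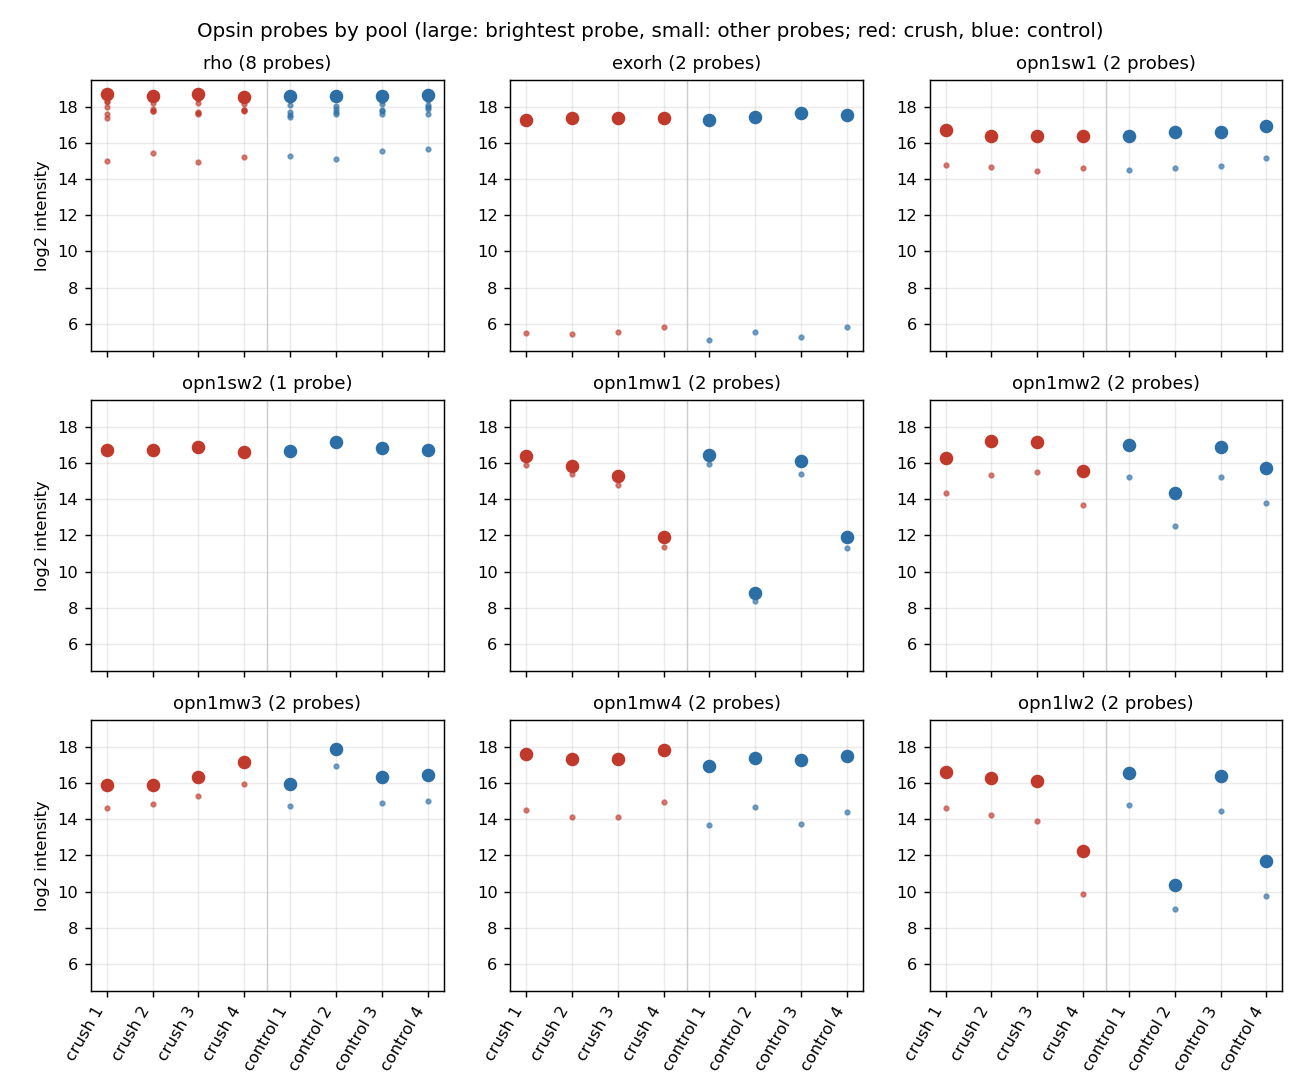
Log2 intensity (y axis) of every opsin probe in crush pools 1 to 4 (red) and control pools 1 to 4 (blue), 1 panel per gene, with the brightest probe as a large point and the other probes as small points. Crush 4, control 2 and control 4 sit low in the panels of opn1mw1, opn1mw2 and opn1lw2, and the points of rho, opn1sw1 and opn1sw2 stay nearly level.

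Some facts of the arrays bear on these values. The median spot intensity was between 181.5 and 193 on the crush arrays and between 153 and 194.5 on the control arrays, over a background of 17 to 19, and 0 spots were saturated. The share of spots well above background was between 76.6% and 77.8% on crush arrays and between 72.5% and 84.0% on control arrays. Control array 2 had 382 spots marked as outliers by the scanner software, and the other arrays had 6 to 21. Pearson's r between arrays across probes was 0.985 to 0.991 among crush arrays and 0.979 to 0.986 among control arrays. All crush arrays lay on 1 slide and all control arrays on another, so that slide and group cannot be told apart, and with so few arrays each value has a limited precision. Of 10 measured ganglion cell markers 9 passed the thresholds, 3 higher and 6 lower in crush pools, beside 3.36% of all genes with a symbol. The growth-associated gene gap43 was higher by 5.09 on the log2 scale (adjusted p = 0.000685, limma). The study had reported gap43, isl2b, pou4f2 and other markers of this list as changed on these same arrays. These calls are therefore no independent check of the labels.

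The rod opsin gene rho, which encodes rhodopsin, was read by 8 probes. The brightest had log2 intensities of 18.72, 18.57, 18.72 and 18.53 in crush pools 1 to 4, and of 18.57, 18.57, 18.57 and 18.64 in control pools 1 to 4. Crush pools 1 and 3 were the highest, crush pool 4 was the lowest, and the groups overlapped. The log2 change was 0.05 (standard error 0.09, adjusted p = 0.825, limma; exact two-sided permutation p = 0.4), and the 95% interval of -0.17 to 0.26 corresponds to 0.891 to 1.20 times the control level. The spot intensities of this probe before correction were 376180 to 419621, in arrays whose brightest spots read between 494975 and 534031. By mean signal it ranked 6 among all probes, where quantile normalisation gives arrays nearly the same values. The narrow interval therefore holds for the normalised values, and in 2 of 18 alternative settings the change turned sign.

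Of the 8 rho probes 4 had a higher and 4 a lower mean in crush pools, with log2 changes between -0.24 and 0.23. The probe with the sixth highest mean had log2 intensities of 18.02, 17.79, 17.71 and 17.78 in crush pools, against 17.56, 17.59, 17.63 and 17.61 in control pools. Every crush pool was above every control pool by this probe, with crush pool 1 the highest. Its log2 change of 0.23 had a standard error of 0.10 and a 95% interval of 0.00 to 0.46, and it did not pass (adjusted p = 0.255, limma; exact permutation p = 0.0286, the smallest that 4 against 4 pools allow). The probe with the fourth highest mean, at 18.30, 18.21, 18.20 and 18.18 in crush pools against 18.11, 18.07, 18.15 and 18.09 in control pools, did not overlap either, with crush pool 1 again the highest, and had a log2 change of 0.12 (standard error 0.09, adjusted p = 0.492, limma; exact permutation p = 0.0286). The probe with the lowest mean went the other way, at 14.98, 15.46, 14.96 and 15.25 in crush pools against 15.26, 15.10, 15.58 and 15.68 in control pools. Its groups overlapped, and its log2 change of -0.24 had an interval of -0.63 to 0.15 (adjusted p = 0.474, limma). Over the 8 probes the intervals together ran from -0.63 to 0.46, so that probes of 1 gene differed in sign and none passed. The spread within a group, as an SD, was between 0.04 and 0.25, beside a median of 0.23 over all probes.

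The gene exorh encodes a rhodopsin that in zebrafish is known from the pineal gland rather than from the eye. Its brighter probe had log2 intensities of 17.25, 17.37, 17.40 and 17.41 in crush pools, against 17.29, 17.45, 17.65 and 17.58 in control pools. Crush pool 1 and control pool 1 were lowest, the groups overlapped, and the log2 change was -0.14 (standard error 0.11, 95% interval -0.39 to 0.11, adjusted p = 0.533, limma). The other probe read 5.50, 5.41, 5.55 and 5.84 in crush pools, against 5.08, 5.51, 5.24 and 5.81 in control pools, and was well above background on 7 of the 8 arrays, whereas the other 22 opsin probes were so on all 8. Pool 4 was the highest in both groups by this probe, and its log2 change was 0.16 (standard error 0.17, adjusted p = 0.655, limma). The probes of exorh thus lay far apart in level, with mean log2 intensities of 17.42 and 5.49. By mean signal they ranked 81 and 31167 among all probes, so that the level of exorh itself cannot be told. Their changes differed in sign, and both 95% intervals held values of either sign. Whether either probe hybridised to rho was not tested, because no probe sequences were used here. Of 13 listed pineal genes 10 were measured, exorh among them. Of these 1 passed, parapinopsinb, beside 3.36% of all genes with a symbol. Whether the retina itself expresses the listed genes was not tested. The highest log2 change of the list was that of asmt2, 0.44 (adjusted p = 0.420, limma). Levels are given for 4 genes of the list, all but parapinopsinb, which passed, singled out after their values were seen. These were aanat2, an enzyme of melatonin synthesis, at 16.10 to 16.94 in crush pools and 16.24 to 16.92 in control pools, asmt, the next enzyme, at 9.98 to 10.53 in crush pools and 10.06 to 10.80 in control pools, parapinopsinb, described with the non-visual opsins, and bsx, well above background on 1 array of each group.

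The short-wavelength cone opsins, opn1sw1 and opn1sw2, stayed within a narrow range. For opn1sw1 the log2 intensities were 16.73, 16.40, 16.39 and 16.38 in crush pools, against 16.39, 16.61, 16.63 and 16.93 in control pools. Crush pool 1 lay above the other crush pools, control pool 4 was the highest of all, and the groups overlapped. The log2 change was -0.17 (standard error 0.14, 95% interval -0.49 to 0.16, adjusted p = 0.563, limma), and that of its other probe was -0.12 (adjusted p = 0.703). For opn1sw2, read by 1 probe, the log2 intensities were 16.72, 16.75, 16.88 and 16.61 in crush pools, against 16.69, 17.14, 16.81 and 16.75 in control pools. Control pool 2 was the highest, the groups overlapped, and the log2 change was -0.11 (standard error 0.13, 95% interval -0.40 to 0.18, adjusted p = 0.684, limma). The intervals of both brightest probes lay inside the 1.5-fold threshold in both directions. With each array scaled to its median in place of quantile normalisation both changes turned sign, to 0.0197 for opn1sw1 and 0.0222 for opn1sw2.

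The 4 green cone opsins differed from each other in how their signal varied over the pools. They are listed next to each other, in the order opn1mw1, opn1mw2, opn1mw3 and opn1mw4, in the RefSeq gene table of assembly GRCz12tu, and they are close relatives, so that a probe of one may take up RNA of another. This was not tested. The probes of opn1mw1 and opn1mw2 had low values in crush pool 4, control pool 2 and control pool 4, those of opn1mw3 were highest in control pool 2 and next in crush pool 4, and those of opn1mw4 varied less.

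For opn1mw1 the log2 intensities were 16.41, 15.86, 15.30 and 11.88 in crush pools, against 16.47, 8.84, 16.14 and 11.89 in control pools. Control pool 2 was the lowest, crush pool 4 and control pool 4 lay close to each other, and the other 5 pools were all far above these 3. The highest pool exceeded the lowest 23.0-fold among crush pools and 199-fold among control pools. Before any correction the same spots read 92323, 63764, 48230 and 4004 in crush pools and 89899, 508, 56482 and 3753 in control pools, and they were well above background on all 8 arrays. The mean log2 intensity was 14.86 ± 2.04 in crush pools and 13.33 ± 3.65 in control pools (SD, n = 4 pools each), and the log2 change was 1.53 (standard error 1.74, adjusted p = 0.674, limma; exact permutation p = 0.657). Its 95% interval of -2.44 to 5.50 runs from 0.185 to 45.2 times the control level, so that these pools set hardly any bound on a change of opn1mw1. Without control pool 2 the log2 change was 0.03, and without control pool 1 it was 2.58. The second probe gave the same picture, at 15.88, 15.41, 14.78 and 11.35 in crush pools against 15.94, 8.34, 15.40 and 11.30 in control pools, with a log2 change of 1.61 (standard error 1.72, adjusted p = 0.651, limma).

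For opn1mw2 the log2 intensities were 16.30, 17.23, 17.17 and 15.56 in crush pools, against 16.98, 14.33, 16.86 and 15.70 in control pools. The same 3 pools were lowest, over a smaller range of 3.17-fold among crush pools and 6.29-fold among control pools. The log2 change was 0.59 (standard error 0.62, 95% interval -0.81 to 2.00, adjusted p = 0.640, limma), and that of the second probe was 0.54 (adjusted p = 0.695). Without control pool 2 the change of the brighter probe was 0.05.

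For opn1mw3 the log2 intensities were 15.89, 15.88, 16.32 and 17.18 in crush pools, against 15.93, 17.87, 16.36 and 16.44 in control pools. The highest values were in crush pool 4, control pool 2 and control pool 4, the pools with the least opn1mw1, although control pool 4 stood only just above control pool 3. The highest pool exceeded the lowest 2.47-fold among crush pools and 3.82-fold among control pools. The log2 change was -0.33 (standard error 0.44, 95% interval -1.34 to 0.67, adjusted p = 0.724, limma), and without control pool 2 it was 0.07, with the sign turned. The second probe read 14.65, 14.86, 15.26 and 15.93 in crush pools, against 14.75, 16.94, 14.90 and 15.04 in control pools. By this probe too control pool 2 and crush pool 4 were highest, with crush pool 3 next, and its log2 change was -0.23 (adjusted p = 0.838).

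For opn1mw4 the log2 intensities were 17.61, 17.32, 17.32 and 17.86 in crush pools, against 16.93, 17.38, 17.30 and 17.48 in control pools. Crush pool 4 was the highest and control pool 1 the lowest, and the groups overlapped. The log2 change was 0.26 (standard error 0.17, 95% interval -0.13 to 0.64, adjusted p = 0.444, limma). The second probe read 14.50, 14.13, 14.11 and 14.97 in crush pools, against 13.69, 14.69, 13.75 and 14.40 in control pools, with a log2 change of 0.30 (standard error 0.28, adjusted p = 0.603, limma), and crush pool 4 was again the highest.

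The red cone opsin opn1lw2 varied as opn1mw1 did, although the table lists it beside opn1lw1 and not among the green genes. Its log2 intensities were 16.61, 16.27, 16.10 and 12.24 in crush pools, against 16.55, 10.38, 16.41 and 11.71 in control pools. Crush pool 4, control pool 2 and control pool 4 were far below the other 5 pools, and the highest pool exceeded the lowest 20.7-fold among crush pools and 72.1-fold among control pools. The mean was 15.30 ± 2.06 in crush pools and 13.76 ± 3.18 in control pools (SD, n = 4 pools each), and the log2 change was 1.54 (standard error 1.58, 95% interval -2.06 to 5.14, adjusted p = 0.635, limma; exact permutation p = 0.4). Without control pool 2 the change was 0.41, and without crush pool 4 it was 2.56. The second probe read 14.65, 14.26, 13.89 and 9.89 in crush pools, against 14.79, 9.01, 14.48 and 9.77 in control pools. It put the same 3 pools lowest, with a log2 change of 1.16 (standard error 1.57, adjusted p = 0.731, limma).

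**Figure D2:**
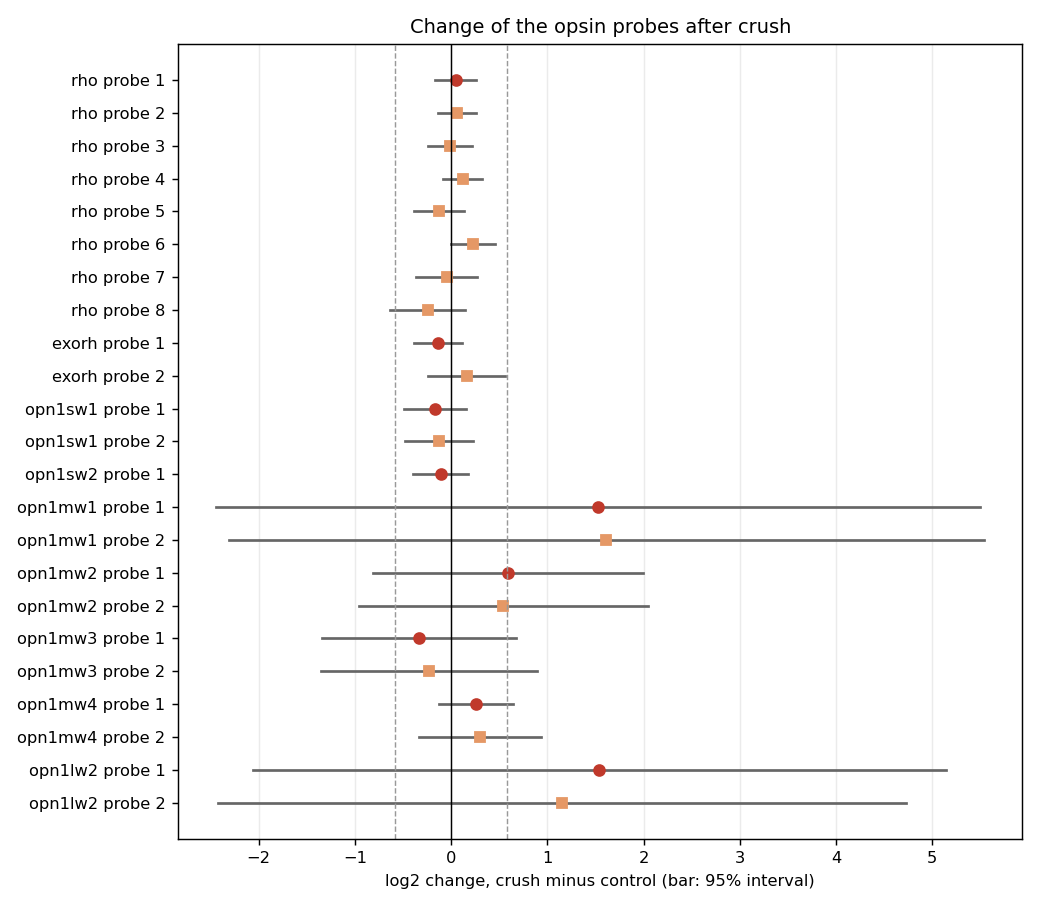
Log2 change, crush minus control (x axis), of each of the 23 opsin probes, numbered by brightness within a gene, with its 95% interval as a bar, the brightest probe of a gene as a red circle and the others as orange squares. Dashed lines mark the 1.5-fold threshold, and the bars of opn1mw1 and opn1lw2 run from below -2 to near 5 or beyond, whereas the points of rho lie between -0.24 and 0.23.

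The spread between pools sets these opsins apart in size from most of the array. As an SD of log2 intensity within a group, it was 2.96 and 2.92 for the probes of opn1mw1 and 2.68 and 2.66 for those of opn1lw2, which rank 10, 15, 18 and 19 among 43601 probes by this measure. An SD of at least 2 was reached by 58 probes in all. For opn1mw2 it was 1.04 and 1.11, for opn1mw3 0.74 and 0.83, and for opn1mw4 0.25 and 0.45. The brighter probe of opn1mw4 was thus near the median of the array, 0.23, and 15.2% of all probes had a larger SD than its second probe.

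**Figure D3:**
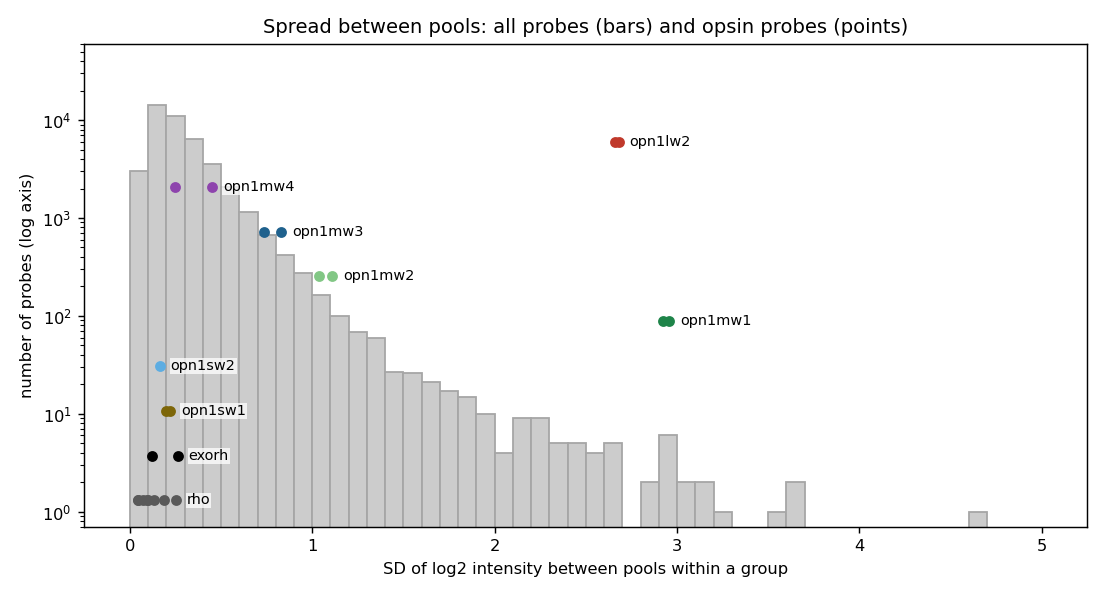
Number of probes (y axis, log scale) by the SD of log2 intensity between pools within a group (x axis), as grey bars for all 43601 probes. Coloured points mark the SD of each opsin probe and are stacked by gene at heights that have no meaning, with rho at 0.04 to 0.25 and opn1mw1 at 2.92 and 2.96.

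All 6 probes of opn1mw1, opn1mw2 and opn1lw2 put crush pool 4, control pool 2 and control pool 4 lowest. The pattern was noticed after the values had been seen, and it is given as a description. Of 43192 probes with a value on all 8 arrays, 2.59% had these 3 pools lowest, and 2.24% had them highest. A gap of at least 1 on the log2 scale between the 3 pools and the other 5 was found for 5 probes, 0.0116% of the array. These were both probes of opn1lw2, with gaps of 3.87 and 3.99, both of opn1mw1, with gaps of 3.41 and 3.42, and a probe of scgn, which encodes the calcium-binding protein secretagogin, with a gap of 1.45 and a signal well above background on 5 arrays. The reverse, with the 3 pools highest by such a gap, was found for 1 probe, 0.00232% of the array, and it was no opsin probe. Under the 7 other ways of processing the arrays the gap of the brightest probe stayed between 3.39 and 3.62 for opn1mw1 and between 3.85 and 4.07 for opn1lw2. The 3 pools hold a crush array and 2 control arrays, so that the pattern was present in both groups and on both slides.

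**Figure D4:**
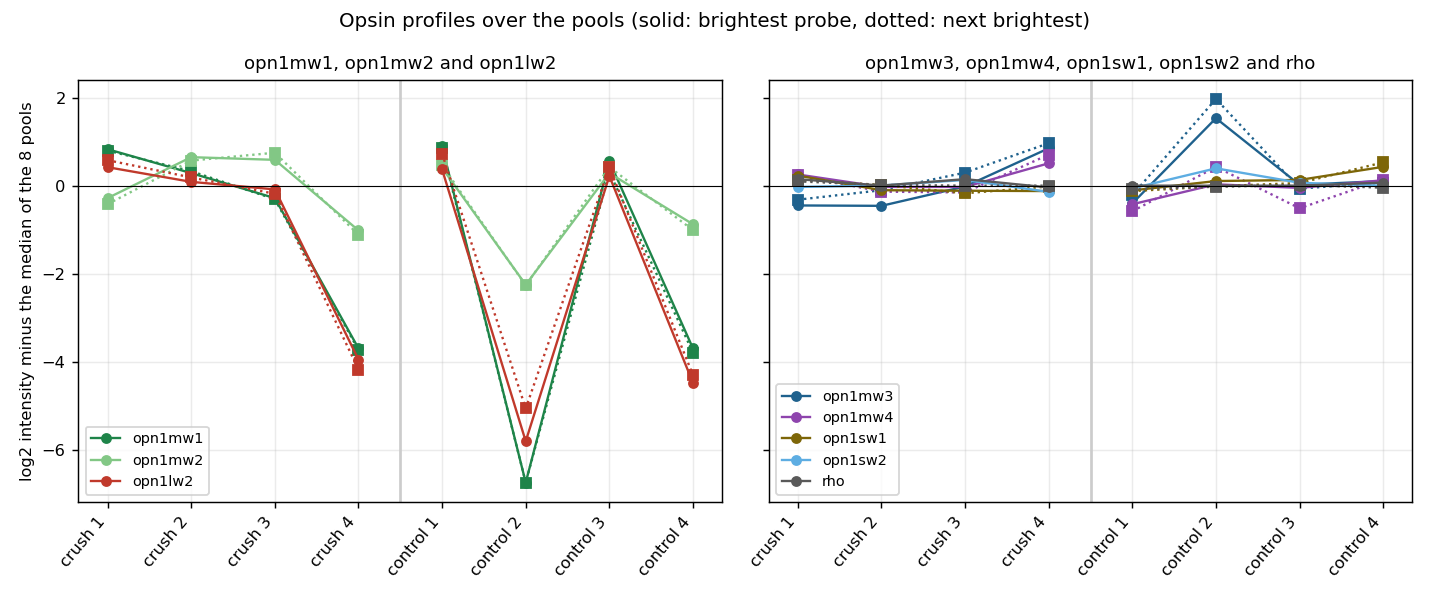
Log2 intensity of each opsin gene minus its median over the 8 pools (y axis) in crush pools 1 to 4 and control pools 1 to 4 (x axis), with the brightest probe as circles on a solid line and the next brightest as squares on a dotted line; lines join values of 1 probe, and the pools have no order. On the left opn1mw1 and opn1lw2 lie far below 0 in crush 4, control 2 and control 4, with opn1mw2 below 0 in the same pools to a lesser extent, and on the right opn1mw3 lies above 0 in crush 4 and control 2.

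Other cone genes did not repeat this pattern at its size. Among the genes singled out after their values were seen, gnat2, the cone transducin alpha subunit, read 17.68, 17.59, 17.76 and 17.01 in crush pools against 18.02, 17.84, 17.71 and 16.99 in control pools, and arr3a, a cone arrestin, read 17.51, 17.61, 17.43 and 17.04 in crush pools against 18.25, 17.69, 17.91 and 16.73 in control pools. Both were lowest in crush pool 4 and control pool 4, by far less than opn1lw2, and neither was low in control pool 2. Of the measured cone cascade genes arr3b, gnb3b, grk1b, grk7a, grk7b, pde6c, pde6ha, pde6hb and rcvrn3 also had these pools lowest. The exceptions were gnb3a, gngt2b and rcvrn2. The share of all probes with crush pool 4 and control pool 4 lowest was not counted. This order can therefore not be called particular to cone genes. For pde6c the values were 16.15 in crush pool 4 and 16.18 in control pool 4, against 16.60 to 17.67 elsewhere. Of other genes so singled out, guca1c, a guanylate cyclase activator, read 14.34 in crush pool 4 and 14.26 in control pool 4. It read 16.50 in control pool 2 and 15.96 to 17.27 in the other pools. The cone cascade gene grk1b read 13.50, 13.10 and 14.53 in crush pool 4, control pool 4 and control pool 2, against 14.25 to 14.63 elsewhere. The summed signal of 14 cone cascade genes was 20.85, 20.82, 20.80 and 20.58 in crush pools and 21.11, 20.92, 20.92 and 20.48 in control pools on the log2 scale. The thyroid hormone receptor gene thrb, needed for red cones in zebrafish and likewise singled out, read 13.10, 13.13, 12.98 and 13.21 in crush pools against 13.50, 13.20, 13.41 and 12.40 in control pools. It was lowest in control pool 4 and not low in crush pool 4 or control pool 2.

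The other genes with this order of pools were likewise singled out after their values were seen. Of 90 measured genes of the visual cascade, the outer segment, opsin regulation and the non-visual opsins, 2 had the 3 low pools as their lowest and 7 as their highest. Among all probes with a value on every array, 2.59% had these pools lowest and 2.24% highest. The lowest 2 were prph2b, an outer segment rim protein, at 13.53 in crush pool 4 and 13.69 in both control pools against 14.20 to 14.62 elsewhere, and gnb3b, a cone transducin beta subunit, by a gap under 0.01. The highest 7 were opn6a, nr1d1, otx5, cnga1a, pde6gb, guca1aa and gnat1. The widest gap among them, 0.36, was that of opn6a, a non-visual opsin, at 13.11 in crush pool 4, 12.99 in control pool 2 and 13.25 in control pool 4 against 12.04 to 12.63 in the other 5 pools. The next was that of nr1d1, a nuclear receptor of the circadian clock, at 12.06 in crush pool 4, 10.66 in control pool 2 and 12.03 in control pool 4 against 9.44 to 10.40 in the other 5 pools. Of the 9 measured pineal genes other than exorh, 4, with otx5 counted again, were highest in the same 3 pools. Of these aanat2 read 16.94 in crush pool 4, 16.74 in control pool 2 and 16.92 in control pool 4, against 16.10 to 16.29 in the other 5, and tph1a, which starts serotonin synthesis, read 10.65, 10.14 and 10.58 in these pools against 9.58 to 9.82 in the other 5. The gaps of asmt and of otx5, a photoreceptor and pineal transcription factor, were 0.07 and 0.09. The part of these genes in the opsin result was not tested.

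The levels of other tissues that a dissected retina could carry were read beside the opsins. The summed log2 signal of 14 pigment epithelium genes was between 15.69 and 16.45 in crush pools, with crush pool 4 the highest, and between 14.96 and 17.26 in control pools, with control pool 2 the highest and control pool 4 the lowest. Of the 14 genes 0 passed, and the 3 pools with little opn1mw1 held both the highest and the lowest of these sums. Lens genes, 11 measured, had a summed signal of 11.46 to 12.36 in crush pools and of 12.22 to 14.83 in control pools, with control pool 1 the highest, and all 11 had a lower mean in crush pools with a median log2 change of -1.41 and 0 calls. Red blood cell genes, 7 measured, were at 14.45 to 15.47 in crush pools and 14.82 to 16.01 in control pools, and skin and cornea genes, 12 measured, at 13.58 to 14.22 in crush pools and 13.44 to 14.01 in control pools, with 0 calls in either list. The part of any of these in the opsin values was not tested. Among retinal lists, 0 of 9 bipolar, 0 of 11 Muller glia and 2 of 15 amacrine and horizontal cell genes passed, beside 3.36% of all genes with a symbol. The 2 were calb2a and calb2b, both lower in crush pools, and the other 13 genes of that list did not pass. Whether the signal of these 2 genes came from amacrine or horizontal cells was not tested. Every measured marker was well above background on at least 1 array except 1 of the 11 Muller glia genes.

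The genes that work with the opsins were counted in the same way. Of the 90 pathway genes 0 passed upwards and 2 downwards in crush pools, while 3.36% of 13143 genes with a symbol passed, 2.47% higher and 0.883% lower. All 6 lists had more genes with a lower than with a higher mean in crush pools, beside a median log2 change of 0.01 over all genes with a symbol. Lower means also prevailed among amacrine and horizontal cell genes (14 of 15, median -0.30) and bipolar genes (6 of 9, median -0.14). For Muller glia genes it was 6 of 11, with a median of -0.02. List medians were read with quantile normalisation only. In the rod cascade 10 of 12 genes had a lower mean and 2 a higher one, with a median log2 change of -0.24 and 0 calls. Its lowest change, -0.53 for the rod arrestin gene saga, had an adjusted p of 0.0320 (limma) but was under the fold threshold, and its highest was 0.09 for gngt1, a transducin gamma subunit. In pools saga read 15.18, 14.93, 14.94 and 15.06 after crush, against 15.56, 15.66, 15.49 and 15.52 in control, so that its groups did not overlap.

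In the cone cascade 11 of 14 genes had a lower mean and 3 a higher one, with a median of -0.18 and 0 calls. The ends were grk7a, the cone opsin kinase, at -0.79 (adjusted p = 0.399, limma) and gngt2b, a cone transducin gamma subunit, at 0.15 (adjusted p = 0.373). A further list held guanylate cyclases, their activating proteins and GTPase accelerators used in rods, cones or both, and also pdcb and unc119b. Of its 14 genes 13 had a lower mean, with a median of -0.32 and 0 calls. The ends were guca1g at -1.89 (adjusted p = 0.167, limma) and guca1ab.1 at 0.54 (adjusted p = 0.254), both guanylate cyclase activators. Of the genes of outer segment structure 13 of 14 had a lower mean, with a median of -0.25 and 0 calls, from rs1b, a retinoschisin, at -0.70 (adjusted p = 0.340) to prom1b, a prominin of membrane folds, at 0.17. Without control pool 4, 3 of the 14 cone cascade genes and 2 of the 14 genes of the list with the cyclases passed. Over the fits with 1 pool left out, 1.10% to 3.52% of all probes passed.

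Of 24 measured regulators of photoreceptor fate and opsin choice, 21 had a lower and 3 a higher mean, with a median log2 change of -0.22 and 0 calls. The ends were rx1, a retinal homeobox gene, at -0.75 (adjusted p = 0.280, limma) and otx2a, a homeobox gene of photoreceptor and bipolar cells, at 0.53 (adjusted p = 0.450). The signal of otx2a was well above background on only 3 crush arrays and 2 control arrays, and was highest in crush pool 3, at 6.76. The homeobox gene six7, needed for green cone opsins in zebrafish and singled out after its values were seen, read 13.63, 13.43, 13.31 and 13.97 in crush pools against 14.67, 13.68, 13.69 and 13.35 in control pools. Crush pool 4 was the highest crush pool and control pool 4 the lowest control pool, which was not the order of opn1mw1.

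Among 12 measured non-visual opsins, 2 passed, both with a lower signal in crush pools. Of all genes with a symbol 3.36% passed in either direction, and 0.883% were lower. The gene parapinopsinb, a light-sensing opsin known from the pineal complex, read 5.81, 5.03, 5.70 and 5.81 in crush pools, against 6.42, 6.52, 6.58 and 6.73 in control pools. Its groups did not overlap, and it was lower by a log2 change of -0.97 (standard error 0.18, adjusted p = 0.0302, limma). The gene tmtopsa, a teleost multiple tissue opsin, read 7.31, 7.01, 7.05 and 6.92 in crush pools, against 7.87, 7.89, 7.77 and 7.61 in control pools. Its groups did not overlap either, and its log2 change was -0.71 (standard error 0.12, adjusted p = 0.0200, limma). Both were well above background on all 8 arrays. With any of crush pool 3 or control pools 1, 2 or 3 left out neither passed, and over all 8 such fits parapinopsinb kept its call in 3 (adjusted p 0.0286 to 0.0897) and tmtopsa in 2 (adjusted p 0.0213 to 0.0736). With the larger normexp offset both were under the fold threshold, at -0.55 each. The highest change in the list was that of opn4a, a melanopsin, at 0.20 (adjusted p = 0.599).

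**Figure D5:**
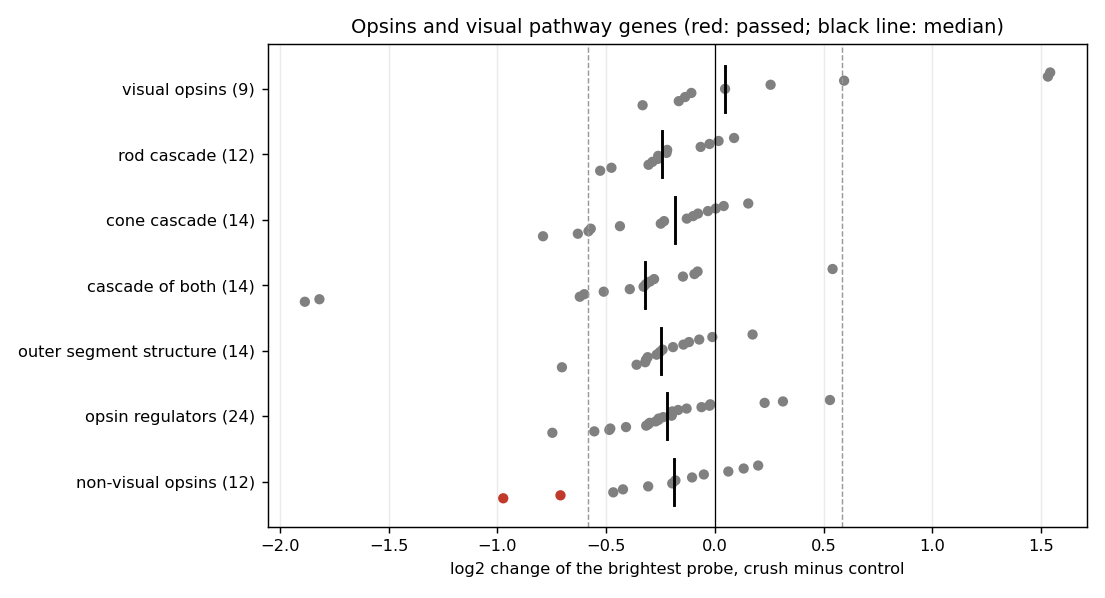
Log2 change, crush minus control (x axis), of the brightest probe of each gene in the visual opsins and in the 6 pathway lists (rows, number of measured genes in brackets), with the median of a list as a black line, the 1.5-fold threshold as dashed lines and height within a row set apart only for legibility. The 2 red points are parapinopsinb and tmtopsa, which passed, and the medians of the pathway lists lie between -0.32 and -0.18.

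The genes whose profile over the 8 arrays was most like that of an opsin were ranked by Pearson's r among 10534 genes, as a description over arrays that share their slides by group. The brightest probe of rho was most like kctd12.2 (r = 0.943, and 0.963 with each group centred), followed by hdac3 (0.924), znf1186 (0.917), bcl9l (0.915) and creb1b (0.909). That probe ran only from 18.53 to 18.72, and it shared 0 or 1 of its 3 lowest pools with each other rho probe. The ranking therefore describes this probe and not rho as a whole. The mean of the centred cone opsin genes was taken without scaling for spread, so that it follows mainly the most variable, opn1mw1 and opn1lw2. This mean was most like fbxo32 (r = 0.959, and 0.962 with each group centred), followed by selenow2a (0.949), slc25a47b (0.934), snf8 (0.933) and mdm4 (0.931). The gene fbxo32, which encodes a muscle atrophy ubiquitin ligase subunit, read 7.63, 7.74, 7.85 and 7.18 in crush pools and 7.65, 6.92, 7.61 and 7.09 in control pools, and selenow2a, a selenoprotein gene, lay between 11.74 and 12.64 in all pools.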

How the data were processed

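Retinal RNA was labelled with Cy3 and hybridised to one-colour Agilent arrays. The deposited scanner files hold the median fluorescence intensity of each spot, its local background and a processed signal, together with flags of the scanner software for outlying, saturated and well detected spots. The authors also deposited a table of log2 values that they had made with the normal-exponential correction, quantile normalisation and limma. Its columns correlated with the values computed here at r = 0.996.

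The median spot intensity was used because the files hold no mean. Background was corrected with normexp (offset 0), control spots were dropped, outlier spots were set to missing, log2 values were quantile normalised, and replicate spots were averaged. The 43601 probes with 2 or more values per group were fitted with lmFit and eBayes in limma 3.58.1 (R 4.3.3), without covariates, and p-values were adjusted by Benjamini-Hochberg over all of them. Summaries used Python 3.11.15 with numpy 2.4.6, pandas 2.3.3 and scipy 1.17.1, and plots matplotlib 3.10.9. Permutation tests were exact and two-sided over 70 relabellings. Of 27369 probes with a RefSeq accession, 25598 were given a symbol (13143 genes) through a RefSeq table of assembly GRCz12tu, whose coordinates were not used. The brightest probe, by mean log2 over the arrays, stands for a gene.

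Named genes were every opsin with all its probes, the list genes that passed or had the highest or lowest change, and the 5 genes most like rho and the cone opsins. Other genes are said to have been singled out after their values were seen. Opsins, lists and tests were chosen with earlier results of these data known. Replicate numbers were not read as pairs. The alternatives were the normexp offset, no correction, other scalings, outlier spots kept, dim probes left out, the authors' table, a stricter fold, the mean of a gene's probes, a replicate block and leaving out each pool. On data simulated for the comparison of crush with control over 43192 probes, 146 of 200 brighter probes changed by a log2 of 1 were recovered (73%), 8 unchanged probes passed, and 0 passed when none had been changed. Each value was drawn independently from the mean and SD of its probe, without patterns shared by pools or slides. These rates therefore need not hold for the real arrays or for the opsin probes.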

Additional observations from a re-analysis of the deposited data

Results flagged for a closer look

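In 46 sets of 4 pools, 1 per opsin probe and group, the gap between an outermost pool and the next was compared with the whole range of the set. By Dixon's criterion, which chance meets in about 1 of 20 independent sets, 6 sets had an outlying pool. Probes of 1 gene read the same RNA, so that the sets are not independent and the 6 cannot be compared with that rate. For the red opsin opn1lw2 crush pool 4 stood apart by both probes, at 12.24 against 16.10 to 16.61 in the other crush pools and at 9.89 against 13.89 to 14.65. For the green opsin opn1mw3 control pool 2 stood apart by the second probe, at 16.94 against 14.75 to 15.04 in the other control pools. The other 3 were small in size. For opn1sw1 crush pool 1 read 16.73 against 16.38 to 16.40, for the second probe of rho crush pool 1 read 18.53 against 18.44 to 18.45, and for its brightest probe control pool 4 read 18.64 against 18.57 in each of the other control pools. The low values of opn1mw1 were not among the 6.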

How the results depend on the processing

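No opsin probe passed under any of the alternatives, so that the count of calls stayed at 0 throughout. The sign of small changes did depend on the processing. With each array scaled to its median the log2 change was 0.0197 for opn1sw1, 0.0222 for opn1sw2 and -0.00852 for rho, with the processed signal at the 75th percentile it was -0.17 for rho, and with all probes of a gene averaged it was 0.0123 for exorh. Leaving out 1 pool at a time gave log2 changes of 0.03 to 2.58 for opn1mw1, 0.41 to 2.56 for opn1lw2, 0.05 to 0.93 for opn1mw2, -0.62 to 0.0734 for opn1mw3, 0.14 to 0.32 for opn1mw4, -0.25 to -0.07 for opn1sw1, -0.16 to -0.01 for opn1sw2, 0.02 to 0.08 for rho and -0.20 to -0.08 for exorh. The lowest values of opn1mw1, opn1mw2 and opn1lw2 and the turned sign of opn1mw3 came without control pool 2. The cause was not tested.

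Of the pathway genes 2 passed as reported, 0 with the larger normexp offset or a log2 change of at least 1.5, 1 with all probes of a gene averaged, and 0 to 6 with 1 pool left out, with 6 without control pool 4. Of all probes 2.75% passed as reported, 5.46% with median scaling, 4.49% without dim probes, 0.521% at a log2 change of at least 1.5 and 1.10% to 3.52% with 1 pool left out. The labels do not say whether replicate numbers pair the samples. Deviations of same-numbered pools from their group means correlated at 0.01, -0.12, 0.02 and 0.18, and these values cannot decide it. With the replicate number as a block 1.11% of all probes, 0 opsin probes and 0 pathway genes passed, with an adjusted p of 0.0705 for parapinopsinb and 0.0634 for tmtopsa (limma). With 4 pools per group and 1 slide per group, changes of opn1mw1, opn1mw2 and opn1lw2 cannot be bounded closely.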
